A study of Mus musculus with 3 samples.

Results

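Egr1, Egr2, Egr3, Nr4a1, Nr4a2, Nr4a3 and Cd69 were followed as a set of 7 genes, chosen by name as genes that respond to antigen receptor signalling, out of 56980 genes listed in the files. All 7 were found once each by symbol. The samples were spleen cell suspensions of wild-type mice, profiled by droplet single-cell RNA sequencing (10x Genomics) in 3 libraries, 1 per group. The control library came from mice that were not irradiated, the IR library from mice given 8.5 Gy together with what the label calls a "colvent control", and the IR_HSO library from mice given 8.5 Gy together with HSO, which the series title gives as hemp seed oil. Age, sex, the time from irradiation to sampling, the dose and route of HSO and the number of mice per library are not given in the sources used here. The title names radioprotection of splenic lymphocytes as the subject, so IR against control and IR_HSO against IR were the comparisons made. With 1 library per group no difference has a replicate check, no test was possible, and every interval covers counting error only.

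As background, Egr1, Egr2 and Egr3 encode zinc finger transcription factors that lymphocytes switch on within a short time of T or B cell receptor engagement. EGR2 and EGR3 are known for restraining T cell activation. Nr4a1 (Nur77), Nr4a2 (Nurr1) and Nr4a3 (Nor1) encode orphan nuclear receptors that the same signals induce and that take part in regulatory T cell function and in T cell dysfunction. Reporter mice for Nur77 are in common use as a readout of antigen receptor signal strength. CD69 is a surface lectin of recently activated and tissue-resident lymphocytes, induced by receptor signals and by type I interferon, and it holds cells in the tissue by binding the egress receptor S1PR1.

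Promoter sequences are shown for Nr4a1, Nr4a2, Nr4a3 and Egr2, the members for which a sequence was available. They are the 250 bases before the RefSeq start site (GRCm38.p6, an older build than the GRCm39 of the counts, used for sequence only), matched by symbol, 5′ to 3′ on the gene's strand. Of the 7 genes, 4 had a window in that table. Capitals mark TGACG, printed as its reverse complement where it lies on the other strand, the core of the cyclic AMP response element, TGCGTCA, whose reverse complement contains TGACG, and the CArG box, the site of serum response factor, all searched on both strands.
Nr4a1, chr15:101266596-101266845, plus strand: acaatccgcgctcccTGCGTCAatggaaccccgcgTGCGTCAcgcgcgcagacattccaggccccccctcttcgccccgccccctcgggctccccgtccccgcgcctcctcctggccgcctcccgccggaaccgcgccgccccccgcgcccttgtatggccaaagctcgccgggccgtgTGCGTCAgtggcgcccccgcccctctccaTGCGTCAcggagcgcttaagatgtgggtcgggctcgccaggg
Nr4a2, chr2:57124004-57124253, minus strand: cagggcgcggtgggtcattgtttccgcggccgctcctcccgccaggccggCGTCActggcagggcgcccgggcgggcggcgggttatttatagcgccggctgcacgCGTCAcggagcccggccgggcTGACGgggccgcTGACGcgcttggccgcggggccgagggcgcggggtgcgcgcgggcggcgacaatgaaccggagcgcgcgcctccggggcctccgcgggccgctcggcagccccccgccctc
Nr4a3, chr4:48045055-48045304, plus strand: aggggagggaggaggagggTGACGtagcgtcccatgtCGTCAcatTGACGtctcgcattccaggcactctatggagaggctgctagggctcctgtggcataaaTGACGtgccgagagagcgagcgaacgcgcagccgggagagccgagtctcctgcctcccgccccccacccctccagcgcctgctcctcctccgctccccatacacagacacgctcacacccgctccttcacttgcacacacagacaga
Egr2, chr10:67537620-67537869, plus strand: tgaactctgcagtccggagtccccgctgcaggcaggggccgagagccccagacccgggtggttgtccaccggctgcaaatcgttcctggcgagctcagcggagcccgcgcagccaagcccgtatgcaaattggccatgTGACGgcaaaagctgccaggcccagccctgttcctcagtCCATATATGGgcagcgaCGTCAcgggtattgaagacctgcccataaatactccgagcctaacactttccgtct

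Each of the 3 Nr4a windows held 4 TGACG matches. Of the 32851 windows in the table, 17.8% held at least 1 match and 45 (0.137%) held 4 or more. In Nr4a1 all 4 matches lay within TGCGTCA, at 235, 215, 71 and 42 bases before the start (first base), and Nr4a1 had the 1 window in the table with 4 copies of TGCGTCA, against 1.75% with any. The Nr4a3 matches began 231, 213, 205 and 147 bases before the start. Those of Nr4a2 began 200, 144, 123 and 111 bases before it. No Nr4a window held a CArG box. The printed Egr2 window, 1 of 5 listed for the gene and 1 of 3 that held both motifs, had a CArG box 73 to 64 bases before the start, a motif of 1.47% of windows, and 2 TGACG matches. The full palindrome TGACGTCA (1.55% of windows) was in none of the 4 printed windows, nor was the EGR site GCGTGGGCG (0.536%) or the NR4A monomer site AAAGGTCA (1.34%). A match describes letters in the reference and not binding in these cells.

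The libraries held 45636807 to 50836313 unique molecular identifiers (UMIs) over 9520 to 13509 barcodes. Cells with at least 500 UMIs and under 10% mitochondrial UMIs were kept: 9163 in control, 12866 in IR and 10608 in IR_HSO. The IR_HSO library stood apart in that 16.5% of its barcodes were over the mitochondrial limit, against 3.75% in control and 4.76% in IR. Pairs of libraries shared 34 to 54 barcode sequences. Cdkn1a, a p53 target that rises after DNA damage, was at 1.70 UMIs per 1000000 T cell UMIs (CPM) without irradiation, 208 in IR and 147 in IR_HSO, so it was high in both irradiated libraries.

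T cells were cells with at least 2 UMIs of Cd3d, Cd3e and Cd3g together: 3731, 8212 and 6982 in control, IR and IR_HSO. They were split by detection into Foxp3 T cells (246, 871 and 1551), Cd4 T cells without Foxp3 or CD8 (1201, 2495 and 1970), CD8 T cells with Cd8a or Cd8b1 only (1280, 653 and 613) and other T cells (1004, 4193 and 2848), most of which had no UMI of any of these genes. A failure to detect Cd4 or Cd8 places a cell among the other T cells, and T cells had a median of 5479 UMIs in control against 3587 and 3569 after irradiation. A cell without a Foxp3 UMI is placed by Cd4 and CD8 alone, so the Cd4 and other T cells can hold regulatory T cells. How many they held was not tested. NK cells (Ncr1 and no Cd3) numbered 337, 1531 and 1046. All 8 T cell markers and all 8 NK cell markers were at 5 CPM or more in their class in every library. The mix of T cells differed between libraries: Foxp3 T cells were 6.59%, 10.6% and 22.2% of T cells and CD8 T cells 34.3%, 7.95% and 8.78%. Other cell types' genes also moved. In T cells the summed B cell markers stood at 835, 323 and 272 CPM, plasma cell markers at 578, 1928 and 1577 CPM, and 8 acinar (pancreatic) genes at 2.27, 2082 and 755 CPM. Neutrophil markers summed to 43.7, 8.79 and 203 CPM, NK cell markers to 481, 1271 and 917 CPM and erythroid genes to 524, 1.06 and 0.899 CPM. Of the control T cells 14.5% met the B rule too, against 1.68% of those in IR and 1.33% of those in IR_HSO. The part of these differences in the results below was not tested, except where values without such cells are given.

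Across all T cells, Egr1 and Nr4a1 were higher in IR than in control, while Cd69 and Nr4a3 were lower and Nr4a2 higher in IR_HSO than in IR. A gene counts as higher or lower here where the log2 ratio of CPM + 1 passes 1.5-fold and 1 library has at least 5 CPM. By that rule 2 of 7 genes were higher in IR than in control, with 10.5% of all genes tested, and 0 of 7 were lower, with 3.86%. In IR_HSO against IR, 1 of 7 was higher (all genes, 6.48%) and 2 of 7 were lower (all genes, 4.73%). The median log2 ratio of the 7 was -0.12 and -0.24 in these comparisons, beside 0.10 and 0.04 over all genes tested.

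**Figure D1:**
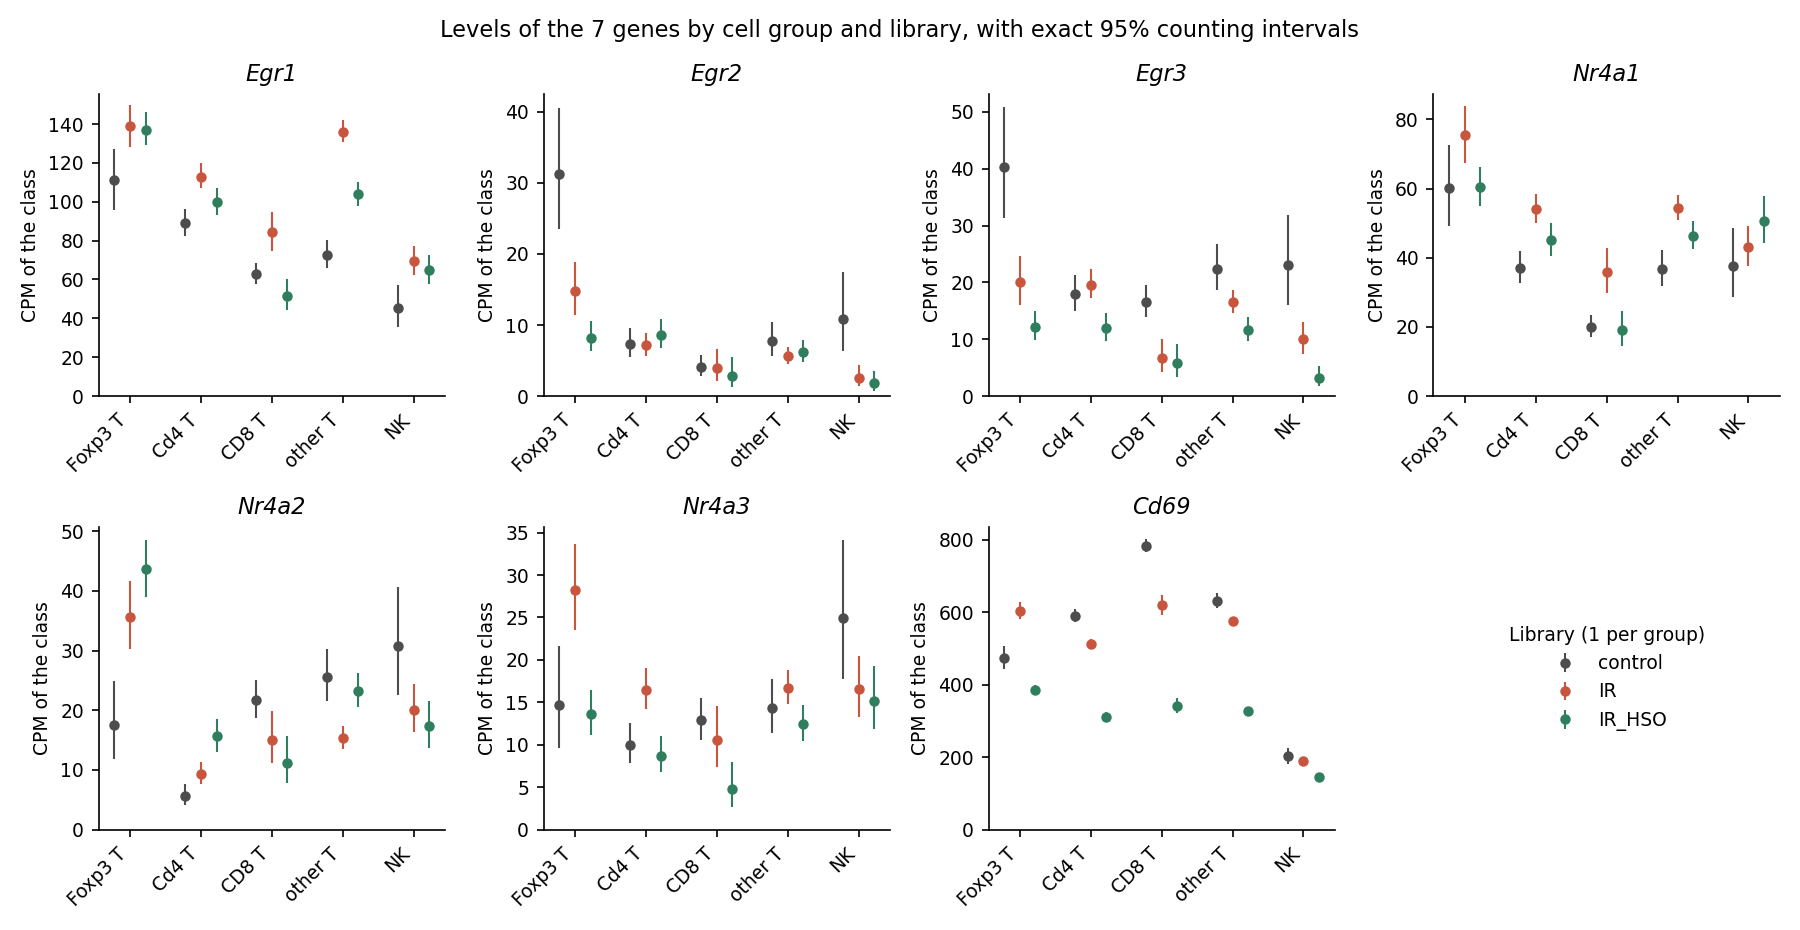
Level of each of the 7 genes in CPM (vertical axis, linear, each panel with its own scale) in 4 groups of T cells and in NK cells, for the control, IR and IR_HSO libraries. Points are class sums and bars exact 95% counting intervals; Cd69 in the IR_HSO library lies below IR in every group shown, at 312 against 512 CPM in Cd4 T cells.

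Egr1 in T cells stood at 77.2 CPM in control, 124 in IR and 106 in IR_HSO. The IR level was 1.61-fold that of control (95% counting interval 1.53 to 1.70), and IR_HSO lay between the other libraries at 0.849 of IR (0.811 to 0.889). Egr1 was higher in IR than in control in all 4 groups, by 1.25-fold in Foxp3 T cells, 1.27-fold in Cd4 T cells, 1.34-fold in CD8 T cells and 1.87-fold in other T cells, and past 1.5-fold in other T cells only. With equal weights for the 4 groups the log2 ratio was 0.49 against 0.68, under 1.5-fold. In IR_HSO the CD8 T cells departed from the rest, with 51.7 CPM against 84.2 in IR and 63.0 in control, a ratio of 0.614 to IR (0.503 to 0.748). Foxp3 T cells had 137 CPM against 139 in IR. Among the T cell groups Foxp3 T cells had the highest Egr1 level and CD8 T cells the lowest in all 3 libraries, and in IR the intervals of Foxp3 and other T cells overlapped.

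Egr2 was sparse, with 185, 252 and 211 UMIs in all T cells of control, IR and IR_HSO, or 8.08, 7.06 and 7.02 CPM, and the intervals of both ratios included 1. Within T cells its levels diverged. In Foxp3 T cells Egr2 was at 31.2 CPM in control, 14.8 in IR and 8.21 in IR_HSO, 2.11-fold lower in IR than in control and 1.80-fold lower in IR_HSO than in IR. In Cd4 T cells it was at 7.34, 7.12 and 8.60 CPM. Foxp3 T cells therefore had 4.25-fold the Egr2 level of Cd4 T cells in control (2.85 to 6.33), 2.08-fold in IR (1.48 to 2.91) and 0.955-fold in IR_HSO (0.668 to 1.36). The control level came from few cells: 55 UMIs in 16 Foxp3 T cells, with 67.3% of the UMIs in 5 cells.

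Egr3 followed the same order in Foxp3 T cells, with 40.3, 20.1 and 12.2 CPM, and 73.2% of its 71 control UMIs were in 5 cells. In CD8 T cells Egr3 was at 16.6 CPM in control, 6.62 in IR and 5.79 in IR_HSO, 2.51-fold lower in IR than in control (ratio 0.398, 0.242 to 0.626). In Cd4 T cells control and IR had 17.9 and 19.6 CPM and IR_HSO 12 CPM. Over all T cells Egr3 stood at 20.3, 17.0 and 11.3 CPM, and IR_HSO was 1.51-fold lower than IR, and no longer past 1.5-fold once 1 CPM was added to both sides. Egr1 and Egr3 both had higher levels in control B cells than in control T cells. The T cells that also met the B rule carried part of the control value of Egr3: without them Egr3 in T cells was at 15.7 CPM in control and 17.1 in IR, a ratio of 1.09 (0.945 to 1.26) in place of 0.840 (0.743 to 0.950). The ratio of IR_HSO to IR was 0.663 with and 0.662 without them.

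**Figure D2:**
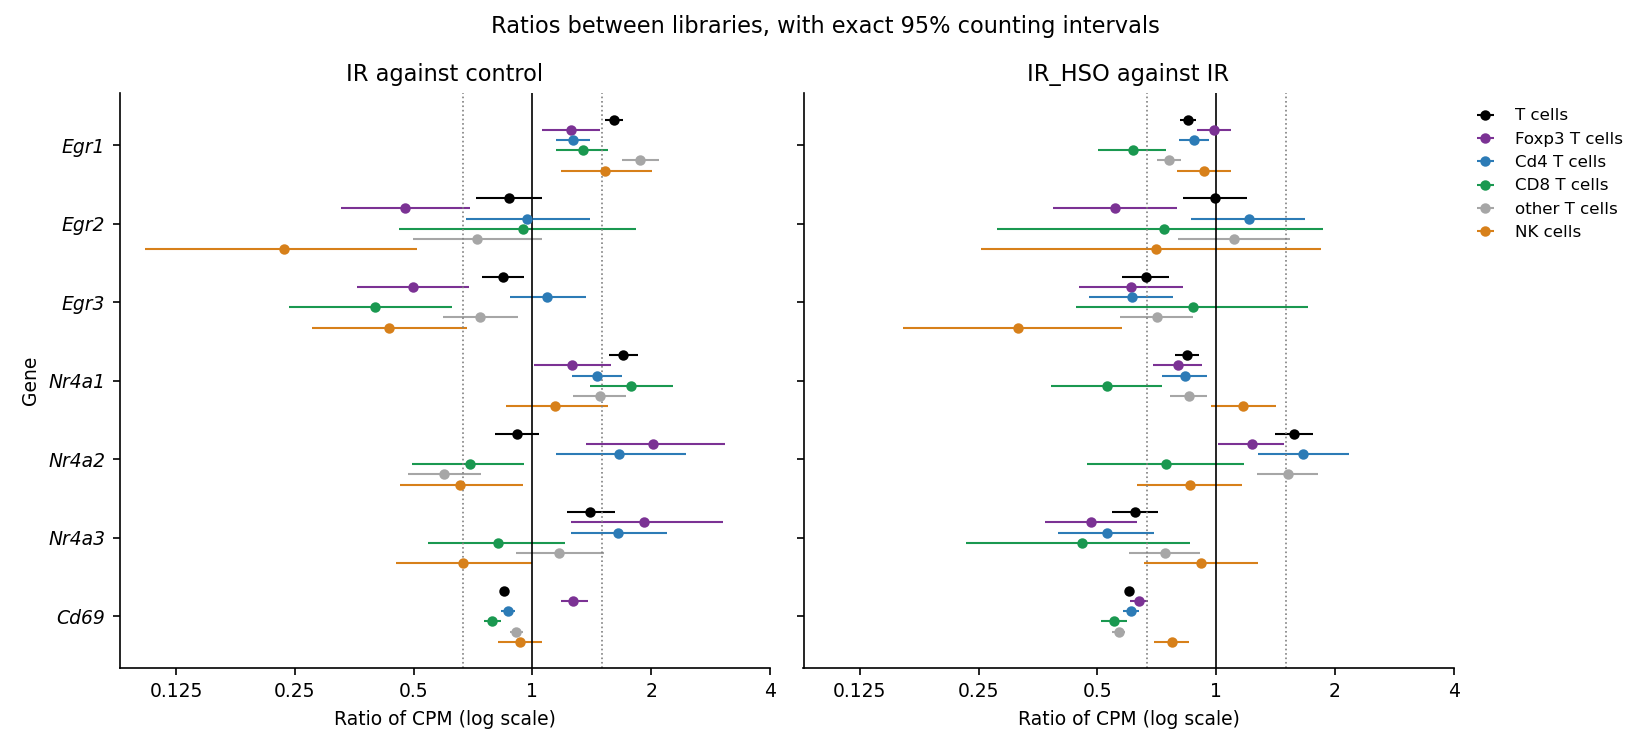
Ratio of CPM between libraries (horizontal axis, log scale) for each gene in T cells, their 4 detection groups and NK cells, with exact 95% counting intervals; dotted lines mark 1.5-fold. Nr4a2 lies on both sides of 1 in IR against control, from 2.02 in Foxp3 T cells to 0.598 in other T cells, and Cd69 lies below 1 in every group in IR_HSO against IR.

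Nr4a1 in T cells was at 32.5 CPM in control, 55.2 in IR and 46.7 in IR_HSO. The IR level was 1.70-fold that of control (1.56 to 1.85) and IR_HSO stood at 0.846 of IR. All 4 groups had more Nr4a1 in IR than in control, from 1.26-fold in Foxp3 T cells (60.1 and 75.4 CPM) to 1.78-fold in CD8 T cells (20.1 and 35.8 CPM), and past 1.5-fold in CD8 T cells only. With equal weights for the 4 groups the log2 ratio was 0.50 against 0.75, under 1.5-fold. In IR_HSO the CD8 T cells were at 19.0 CPM, 1.89-fold lower than in IR. The groups kept their order in each library, with Foxp3 T cells highest, CD8 T cells lowest, and Cd4 and other T cells between them with overlapping intervals.

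Nr4a2 gave opposite directions by group. In Foxp3 T cells it was at 17.6 CPM in control, 35.6 in IR and 43.6 in IR_HSO, 2.02-fold higher in IR than in control (1.37 to 3.08). Cd4 T cells had the same order at lower levels, 5.65, 9.38 and 15.6 CPM. CD8 T cells had 21.7, 15.0 and 11.2 CPM, lower at each step. Other T cells had 25.6, 15.3 and 23.3 CPM, lowest in IR. In the control library 45.5% of the 143 Nr4a2 UMIs of other T cells were in 5 cells. Over all T cells the level was 17.4, 15.9 and 25 CPM, so that IR_HSO was 1.58-fold above IR (1.41 to 1.76). That difference was 1.23-fold within Foxp3 T cells, 1.66-fold within Cd4 T cells and 1.52-fold within other T cells, and 0.748-fold within CD8 T cells. With equal weights for the 4 groups its log2 ratio was 0.30 against 0.63. Foxp3 T cells had 3.11-, 3.79- and 2.79-fold the Nr4a2 level of Cd4 T cells in control, IR and IR_HSO, and the lower limit of each interval was at least 1.88.

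Nr4a3 was highest in IR in Foxp3, Cd4 and other T cells. Its level was 14.7, 28.3 and 13.6 CPM in Foxp3 T cells and 10.0, 16.5 and 8.72 CPM in Cd4 T cells of control, IR and IR_HSO. The IR level was 1.92-fold and 1.65-fold that of control, and IR_HSO was 2.07-fold and 1.89-fold lower than IR. Other T cells had 14.3, 16.7 and 12.4 CPM, with neither step past 1.5-fold. In CD8 T cells the level was 12.9, 10.5 and 4.82 CPM, the last from 15 UMIs. Over all T cells Nr4a3 was at 12.5, 17.5 and 10.9 CPM, and IR_HSO was 1.60-fold lower than IR (ratio 0.624, 0.544 to 0.714).

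By group, the counts past 1.5-fold in IR against control were 2 higher and 2 lower of 7 in Foxp3 T cells (all genes, 10.5% higher and 10.4% lower) and 2 higher and 0 lower of 7 in Cd4 T cells (11.7% and 4.29%). CD8 T cells had 1 higher (13.5%) and 1 lower (4.79%) of 6 genes at 5 CPM, and other T cells 1 higher (10.8%) and 1 lower (5.68%) of 7. Between IR_HSO and IR the lower side held more of the genes. It had 4 of 7 in Foxp3 T cells (all genes, 5.58%), 3 of 7 in Cd4 T cells (6.60%), 4 of 6 in CD8 T cells (7.95%) and 1 of 7 in other T cells (4.55%), while the higher side had Nr4a2 in Cd4 T cells only (8.99%) and 0 in Foxp3, CD8 and other T cells (8.17%, 8.33% and 5.52%). Cd69 and, outside the other T cells, Nr4a3 were lower in each group.

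Cd69 had the most UMIs of the 7 in T cells, 15179, 20095 and 10167, and therefore the narrowest intervals. Its level was 663 CPM in control, 563 in IR and 338 in IR_HSO. IR was at 0.849 of control (0.831 to 0.867), and IR_HSO was 1.66-fold lower than IR (1.62 to 1.70). IR_HSO was lower than IR by 1.57-fold in Foxp3 T cells (604 and 385 CPM), 1.64-fold in Cd4 T cells (512 and 312 CPM), 1.82-fold in CD8 T cells (620 and 341 CPM) and 1.77-fold in other T cells (575 and 326 CPM). In IR against control the groups did not share a direction, since Foxp3 T cells had more Cd69 in IR (475 and 604 CPM, 1.27-fold) and CD8 T cells less (783 and 620 CPM). Without the T cells that met the B rule the ratio of IR_HSO to IR was 0.603, against 0.601 with them. With a mitochondrial limit of 5% and in the 13 other settings tried the log2 ratio ranged from -0.77 to -0.68.

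**Figure D3:**
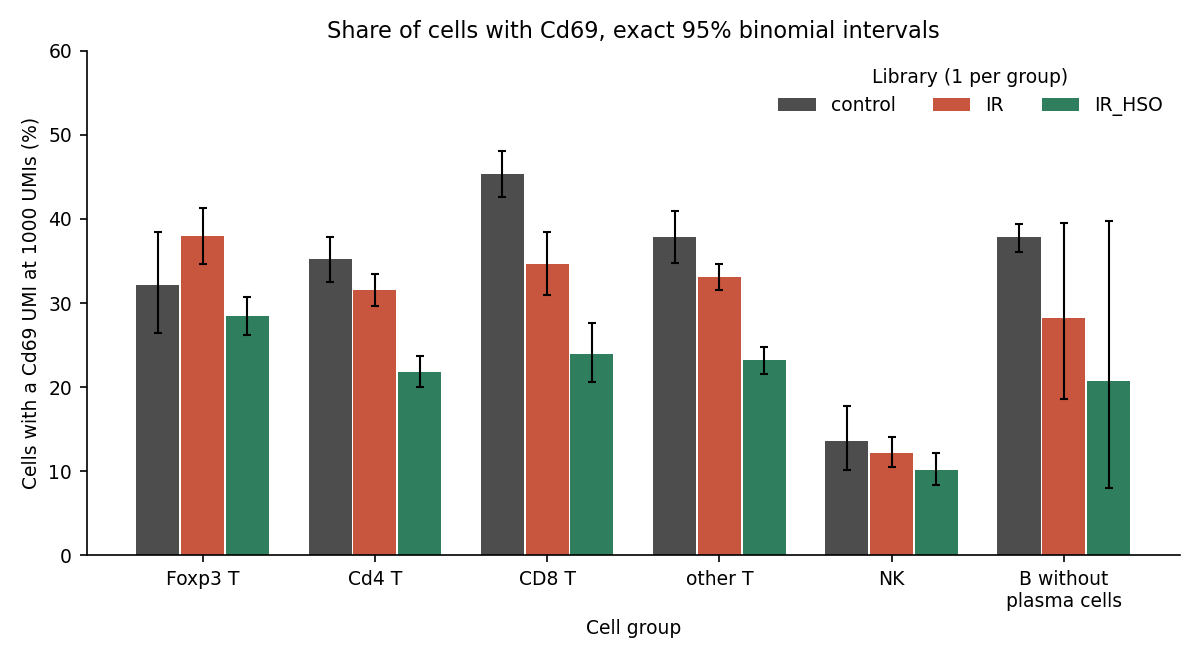
Share of cells with at least 1 Cd69 UMI after each cell was thinned to 1000 UMIs (vertical axis, percent) by cell group, for the control, IR and IR_HSO libraries, with exact 95% binomial intervals. The share in IR_HSO is below that in IR in the 4 T cell groups, as in CD8 T cells at 24.0% against 34.6%, and the B cell bars after irradiation rest on 79 and 30 cells before thinning.

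In IR_HSO against IR, both the share of T cells with Cd69 and the Cd69 UMIs per such cell were lower. After thinning to 1000 UMIs, which left out 15, 229 and 91 T cells, a Cd69 UMI was found in 39.2% of control T cells, 33.3% of IR and 24.0% of IR_HSO T cells (72.1%, 59.8% and 51.2% before thinning). Among T cells with Cd69 before thinning, the mean was 5.64, 4.09 and 2.84 UMIs. That mean is not adjusted for depth, and T cells had a median of 5479 UMIs in control against 3587 in IR and 3569 in IR_HSO. As a background for stray RNA, cells with at least 20% of UMIs in haemoglobin genes had Cd69 in 4.84% of 124 thinned cells in control (median 2040 UMIs), and cells with as large a share in acinar genes in 2.63% in IR and 0% in IR_HSO (medians 2813.5 and 3442 UMIs, upper limits 13.8% and 8.41%). The T cell shares for Cd69 lay above these in every library. For the 6 transcription factor genes the shares were small: Egr1 was found in 6.30%, 9.28% and 8.42% of thinned T cells, and Nr4a1 in 3.20%, 4.71% and 3.77%. Unthinned, Egr1 was found in 20.6%, 23.1% and 21.5% of T cells and Nr4a1 in 11.6%, 14% and 12.9%. The background shares for both ran from 0% to 2.63% with upper limits of up to 13.8%, so at this depth their intervals overlapped those of the T cells. At least 1 of the 6 factor genes was found in 11.6% of thinned control T cells, 16.1% of IR and 14.5% of IR_HSO T cells. In CD8 T cells those shares were 10.8%, 11.6% and 6.78%, and in Foxp3 T cells 13.9%, 20% and 21.1%.

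NK cells, which do not carry a rearranged antigen receptor, are described beside T cells. Egr3, Nr4a2 and Nr4a3 ran from highest in control to lowest in IR_HSO, as they did in CD8 T cells, though not every interval excluded 1. Cd69 was at 203, 189 and 146 CPM in control, IR and IR_HSO, so that T cells had 3.27-, 2.98- and 2.32-fold the NK level, and IR_HSO was 1.30-fold lower than IR. Egr2 was at 10.9, 2.54 and 1.79 CPM and Egr3 at 23.0, 9.96 and 3.14 CPM, each from 8 to 51 UMIs. Egr3 was lower at each step, 2.31-fold from control to IR (1.46 to 3.61) and 3.17-fold from IR to IR_HSO (1.73 to 6.21). Nr4a2 and Nr4a3 were higher in control NK cells than in control T cells, by 1.77-fold and 2-fold, and stood at 30.7, 20.1 and 17.3 CPM and at 24.9, 16.6 and 15.2 CPM. Egr1 was at 45.4, 69.6 and 64.8 CPM, with 59.2% of the 71 control UMIs in 5 cells, and Nr4a1 at 37.7, 43.2 and 50.7 CPM. In IR against control 1 of 7 was higher (all genes, 10.7%) and 3 of 7 lower (11%). Of 6 genes compared between IR_HSO and IR 0 were higher (7.30%) and 1 lower (5.50%). B cell markers in NK cells summed to 1697, 411 and 299 CPM and acinar genes to 3.20, 3640 and 6929 CPM. In NK cells that also had Nkg7 and met no other class rule, Egr3 was at 20.9, 8.61 and 3.38 CPM and Nr4a2 at 40.1, 20 and 18.6 CPM. Egr1 in these cells was at 29.6, 46.3 and 43.7 CPM. Over 13 alternatives for NK cells the Egr1 log2 ratio, IR against control, ran from 0.02 to 1.17. Cd69 in these NK cells was at 149, 181 and 144 CPM, so that the ratio of IR to control was 1.21 (1.03 to 1.44) in place of 0.93 (0.818 to 1.06). T cells that did not meet the B rule had 4.58-, 3.17- and 2.40-fold that Cd69 level.

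B cells by the rule (at least 2 UMIs of Cd79a and Cd79b) numbered 4719, 444 and 321. After irradiation the rule gathered mostly plasma-type RNA: immunoglobulin genes took 4.26% of their control UMIs and then 53.8% (IR) and 53.1% (IR_HSO), and B cell markers summed to 7546, 1234 and 861 CPM. In IR against control 76.2% of all genes were lower, and 3 of 5 of the genes at 5 CPM, so nothing is read from that count. On the higher side there were 0 of 5 (all genes, 6%). Of 5 genes compared between IR_HSO and IR 0 were higher (6.48%) and 4 lower (7.62%). B cells with a further B cell marker, without Cd3 or Sdc1 and with under 10 Jchain UMIs, a rule chosen after seeing these values, left 3469, 79 and 30 cells, with immunoglobulin genes taken out of the sums. In control, these B cells had Egr1 at 192 CPM, Egr3 at 104 CPM and Cd69 at 634 CPM, and Nr4a2 and Nr4a3 at 1.99 CPM each. T cells of the same library that did not meet the B rule had 10.3-fold the Nr4a2 and 7-fold the Nr4a3 level of these B cells, and 0.370 of their Egr1 and 0.150 of their Egr3 level. After irradiation Egr1 was at 96.5 CPM in IR and 50.7 CPM in IR_HSO, from 22 and 6 UMIs. Nr4a1 was at 27.2 CPM in control, 8.77 in IR and 8.45 in IR_HSO, the last 2 from 79 and 30 cells. Egr3 was at 52.6 CPM from 12 UMIs in IR and had 0 UMIs in IR_HSO, which allows up to 31.2 CPM. Cd69 was at 566 and 253 CPM, from 129 and 30 UMIs, again lower in IR_HSO.

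Cells that held 1 of the genes held others more often, described here over thinned T cells, in which sparse counts limit every share. Egr1 was found in 48.3% of the 29 control T cells with Egr2 and in 5.97% of those without it. The same shares were 27.3% of 55 and 9.16% in IR, and 41.4% of 58 and 8.14% in IR_HSO. Nr4a1 was found in 22.0%, 14.4% and 11.5% of T cells with Nr4a2 and in 2.95%, 4.56% and 3.61% of those without. Cd69 was found in 53.0%, 46.7% and 30.2% of T cells with Egr1 and in 38.3%, 31.9% and 23.5% of those without, so cells with Egr1 also had Cd69 least often in IR_HSO. Nr4a2, rare in all T cells, was found less often in those with the egress receptor gene S1pr1 than in those without it. The 4 groups of T cells, which differed in Nr4a2 level, are pooled in these shares. Nr4a2 was in 0.516%, 0.443% and 1.14% of T cells with S1pr1 and in 1.64%, 1.73% and 2.22% of those without. For Cd69 the shares with and without S1pr1 were 39.7% and 39.0% in control, 33.8% and 33.1% in IR and 23.6% and 24.1% in IR_HSO.

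**Figure D4:**
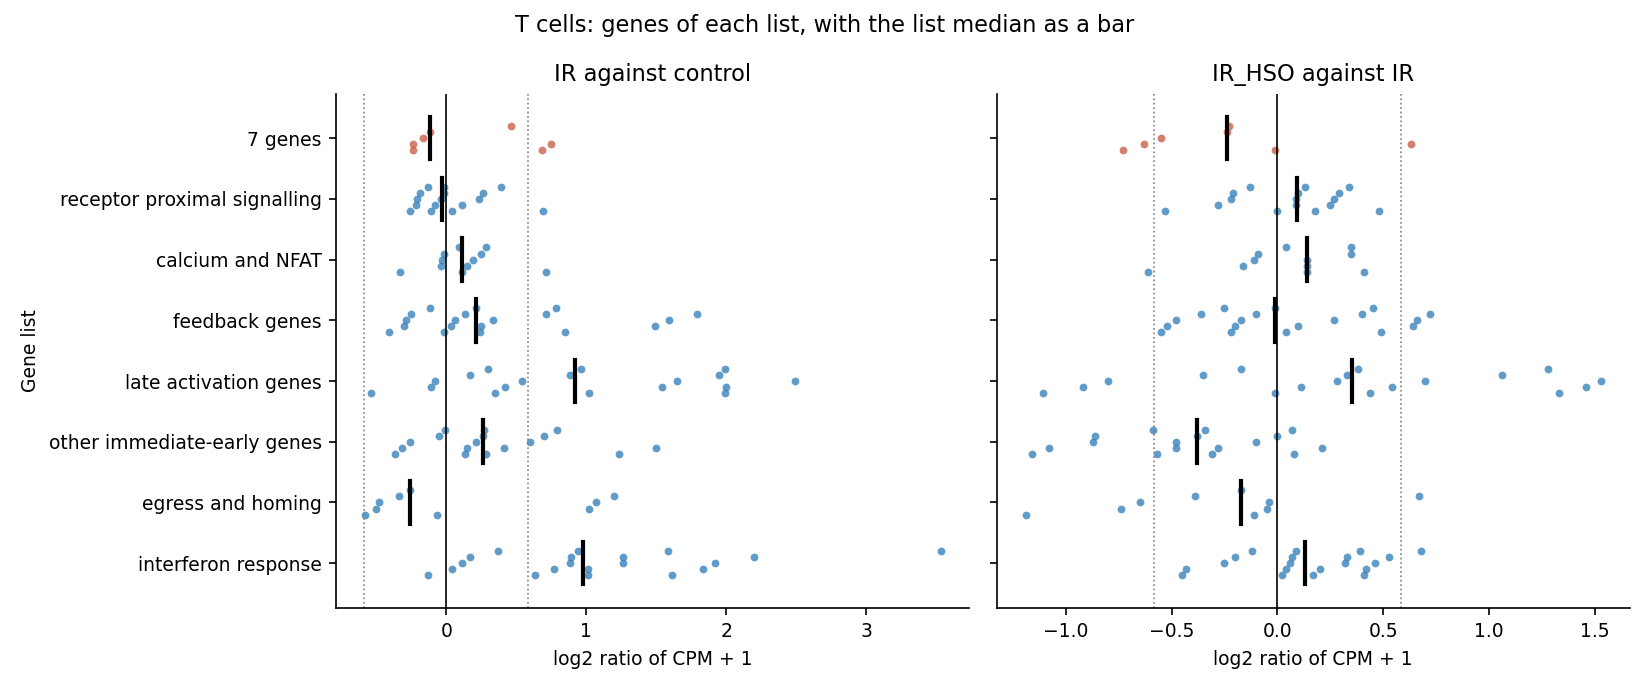
Log2 ratio of CPM + 1 (horizontal axis) of the genes at 5 CPM or more in the 7-gene set and in 7 related gene lists, in T cells, for IR against control and IR_HSO against IR. Each point is a gene, thick bars are list medians and dotted lines mark 1.5-fold; the late activation list has a median of 0.92 in IR against control and the other immediate-early list one of -0.38 in IR_HSO against IR.

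Around the 7 genes, lists of related genes are described in T cells by their counts, beside 10.5% higher and 3.86% lower of all genes in IR against control and 6.48% and 4.73% in IR_HSO against IR. Differences between lists were not tested. Of 16 receptor-proximal signalling genes, 1 was higher and 0 lower in IR than in control, the phosphatase gene Ptpn22 (154 and 250 CPM), and 0 passed 1.5-fold in IR_HSO against IR. Of 11 measured calcium and NFAT genes 1 was higher in IR than in control, the calcineurin subunit gene Ppp3cc (31.2 and 51.6 CPM), and 0 were lower. Between IR_HSO and IR 0 of the 11 were higher and 1 was lower. The list medians were -0.03 and 0.11 in IR against control and 0.09 and 0.14 in IR_HSO against IR.

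Feedback genes, which dampen receptor signals, had 6 higher and 0 lower of 19 in IR against control, with a median of 0.21. Spry2, an inhibitor of Ras signalling, was 4.20-fold higher (3.28 and 13.7 CPM), Rgs1, a regulator of chemokine receptor signalling, 3.03-fold (189 and 573 CPM) and Dusp5, an ERK phosphatase gene, 2.88-fold (25.2 and 72.5 CPM). Set against IR, IR_HSO had 3 higher, Spry1 (1.73-fold), Dusp4 (1.63-fold) and Ubash3b (1.60-fold), and 0 lower. The groups did not share this direction. In CD8 T cells 0 were higher and 6 lower of 17 (all genes, 8.33% and 7.95%), and in Foxp3 T cells 0 and 0 of 19 (8.17% and 5.58%). Cd4 T cells had 3 higher and 1 lower of 19 (8.99% and 6.60%), and other T cells 2 and 1 of 19 (5.52% and 4.55%). Over all T cells Nab2, an EGR target gene and corepressor, stood at 24.8, 20.7 and 13.8 CPM in control, IR and IR_HSO. Cblb, a ubiquitin ligase gene of the same programme, was at 104, 109 and 149 CPM.

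The late activation list had 10 higher and 0 lower of 18 in IR against control. Bhlhe40, a transcription factor gene of activated T cells, was 5.85-fold higher (20.2 and 118 CPM), Ifng 4.26-fold, and the costimulatory receptor genes Tnfrsf4 and Tnfrsf18 4.05- and 4.03-fold, with Il2ra, the IL-2 receptor alpha chain, at 4.01-fold. By group, IR against control had 6 higher and 1 lower of 18 in Foxp3 T cells (all genes, 10.5% and 10.4%). Cd4 T cells had 11 and 0 of 18 (11.7% and 4.29%). CD8 T cells had 12 and 0 of 16 (13.5% and 4.79%), and other T cells 10 and 2 of 18 (10.8% and 5.68%). Over all T cells, the list split between IR_HSO and IR, with 6 higher and 3 lower. Tox2 was 3.10-fold higher (9.04 and 28.1 CPM), the inhibitory receptor genes Pdcd1 2.88-fold (13.9 and 39.9 CPM) and Ctla4 2.54-fold (77.8 and 198 CPM), and Tox 2.45-fold, while the chemokine gene Xcl1 was 2.18-fold lower (146 and 66.9 CPM). By group, IR_HSO against IR had 4 higher and 2 lower of 18 in Foxp3 T cells (all genes, 8.17% and 5.58%). Cd4 T cells had 7 and 2 of 18 (8.99% and 6.60%). CD8 T cells had 5 and 2 of 17 (8.33% and 7.95%), and other T cells 5 and 3 of 18 (5.52% and 4.55%). The share of Foxp3 T cells among T cells was 6.59% in control, 10.6% in IR and 22.2% in IR_HSO. Ctla4 and Tnfrsf4 are known as genes of regulatory T cells, and the part of that share in the ratios over all T cells was not tested.

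Other immediate-early genes had 5 higher and 0 lower of 17 in IR against control, led by the phosphatase gene Dusp1 (2.84-fold, 120 and 342 CPM) and Ier3 (2.80-fold). In IR_HSO against IR 0 were higher and 5 lower, with a median of -0.38. Fos was 2.24-fold lower (363 and 162 CPM), Jun 2.11-fold (994 and 471 CPM), Ier3 2.01-fold, Fosb 1.84-fold (185 and 101 CPM) and Zfp36 1.5-fold (225 and 149 CPM). In NK cells Fos, Fosb and Jun were lower in IR_HSO than in IR as well, by 1.84-, 1.71- and 1.88-fold.

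In the egress and homing list 3 of 9 were higher in IR against control, among them Itga1 (2.70-fold) and Cxcr6 (2.05-fold), and 0 lower. S1pr1 stood at 295, 211 and 203 CPM in control, IR and IR_HSO, and Klf2, which encodes the factor that drives S1pr1, at 979, 931 and 593 CPM. Of the 9, 1 was higher in IR_HSO than in IR (Itgae, 1.65-fold) and 3 lower: Cxcr6 (2.32-fold, 78.0 and 33.6 CPM), S1pr5 (1.85-fold) and Klf2 (1.57-fold). Interferon response genes had 15 higher and 0 lower of 20 in IR against control, with a median of 0.97, led by Cxcl10 (15.6-fold, 2.58 and 40.2 CPM) and Mx1 (5.32-fold). By group, 7 of 20 were higher in Foxp3 T cells (all genes, 10.5%). In Cd4, CD8 and other T cells 14, 15 and 13 of 20 were higher (11.7%, 13.5% and 10.8%). On the lower side each of the 4 groups had 0 (10.4%, 4.29%, 4.79% and 5.68%). Over all T cells in IR_HSO against IR 1 was higher, Ifit3 at 1.62-fold, and 0 lower, with a median of 0.13. B cell receptor signalling genes, read in T cells as a check of carried-over B cell RNA, had 0 higher and 9 lower of 12 in IR against control, among them Bank1 (46.9 and 4.17 CPM). Their median log2 ratio was -1.50. Without the T cells that met the B rule, 1 was higher and 3 lower of 9, with a median of -0.36.

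Over the 18 levels of 3 libraries by 6 cell groups (the 4 groups of T cells, NK and B cells), Pearson correlations of log2(CPM + 1) describe which genes were most alike among 10096 genes. Points of 1 library share its depth and preparation. The B cell points of IR and IR_HSO held 53.8% and 53.1% immunoglobulin UMIs. Nr4a2 and Nr4a3 had their lowest levels in the B cell points, and Nr4a1 in those of IR and IR_HSO. The part of the B cell points in these correlations was not tested. Among the 7, Nr4a1 and Nr4a3 were the most alike (r = 0.86), followed by Nr4a2 and Nr4a3 (0.81) and Egr2 and Egr3 (0.71), while Egr1 and Nr4a1 were not alike (0.06) and Egr1 and Nr4a2 had r = -0.35. The most alike genes outside the set were Yaf2, Sting1 and Gabpb1 for Nr4a1 (0.95, 0.94 and 0.94), Traf1, Rarg and Gm26698 for Nr4a2 (0.88, 0.86 and 0.85) and Arhgap10, Yaf2 and 2610002M06Rik for Nr4a3 (0.95, 0.93 and 0.93). For Cd69 they were Id3, Hspb11 and Ppp1r15a (0.93, 0.92 and 0.92). For the Egr genes they were Cd81, Hmgn3 and Rab3a for Egr1 (0.84, 0.78 and 0.78), Mxi1, Marcksl1 and Galm for Egr2 (0.85, 0.85 and 0.84) and 4933433G15Rik, Gm45153 and Tmem50b for Egr3 (0.91, 0.89 and 0.88).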

How the data were processed

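The deposited values were raw UMI counts per gene and cell barcode in 3 matrices, which the authors obtained from Cell Ranger (7.0.1, per the file headers) and GRCm39 (per the submitters' processing notes). The annotation release is not given in the sources used here. The 7 genes and all gene lists were chosen with earlier results of these data known. Cells were kept as stated, and a cell could fall into more than 1 class. Doublets were not called: an alternative left out cells that met the T and the B rule and cells over the 98th percentile of UMIs. Counts were summed per class and library and scaled to CPM. Ratios carry exact conditional 95% intervals, shares exact (Clopper-Pearson) ones, and levels exact Poisson ones. Called genes passed 1.5-fold with a pseudocount of 1 CPM and at least 5 CPM in 1 library. Shares of cells rest on cells thinned to 1000 UMIs. Named were all 7 genes, up to 5 genes per list with the largest change past 1.5-fold, S1pr1, Klf2, Nab2, Cblb and Cdkn1a, and the 3 most alike genes per member; some genes that this rule names are not reported here. The calls were tested on simulated data for T cells, IR against control, where 200 of 200 changed genes among 7964 were recovered and 0 unchanged genes were called. The planted changes were all larger than 1.5-fold, in genes above the 5 CPM minimum, and the simulated counts held counting error only. Recovery of changes near the 1.5-fold limit, or with differences between libraries, was therefore not tested. Python 3.11.15, numpy 2.4.6, scipy 1.17.1 and pandas 2.3.3 were used.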

Additional observations from a re-analysis of the deposited data

Results flagged for a closer look

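The IR against control ratio of Nr4a2 went past 1.5-fold in opposite directions in different groups of cells. Its log2 ratio was 0.98 in Foxp3 T cells and 0.64 in Cd4 T cells, against -0.71 in other T cells and -0.59 in NK cells. The NK value passed 1.5-fold in 5 of 13 alternatives (range -0.97 to -0.46). Each group has 1 library per condition, so the difference between groups was not tested. Nr4a1 had a log2 ratio of 0.81 in CD8 T cells and -0.98 in B cells by the same comparison, and that difference was not tested either. The median gene in B cells had a log2 ratio of -1.06 in this comparison, and Nr4a1 stood at 0.08 there once all genes were centred. Over the 14 alternatives Nr4a1 in B cells ran from -1.53 to 0.08 and stayed past 1.5-fold in 10. In B cells immunoglobulin genes took 4.26% of UMIs in control and 53.8% in IR.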

How the results depend on the processing

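No paired analysis was possible because each group has 1 library, and for the same reason no library could be left out. The lower Cd69 in T cells of IR_HSO against IR passed 1.5-fold in 14 of 14 alternatives, the higher Egr1 and Nr4a1 in IR against control in 12 of 14 each, Nr4a3 in 12 of 14 and Nr4a2 in 9 of 14. Counts of the 7 genes in T cells, 2 higher in IR against control, became 1 with all genes centred, 1 with thinned cells and 0 with equal weight of the 4 T cell groups, where 2 were lower against 0. In IR_HSO against IR, the 1 higher became 0 with centring, a pseudocount of 5 CPM, a mitochondrial limit of 5%, thinning and equal weights, and the 2 lower became 1 with a pseudocount of 5 CPM or a minimum of 20 CPM. In NK cells, IR against control, the 1 higher became 0 with a pseudocount of 5 CPM, a mitochondrial limit of 5%, higher class thresholds or possible doublets left out, and 2 with means over cells or thinning, and the 3 lower became 1 with means over cells. The 1 lower in IR_HSO became 0 with a minimum of 20 CPM and 2 with means over cells or thinning. In B cells, IR against control, the 0 higher became 2 with centring, 3 with totals without immunoglobulin, haemoglobin, mitochondrial, ribosomal and pancreatic genes, and 1 with no minimum, without possible doublets or with means over cells, while the 3 lower became 1 with centring or with those totals. In IR_HSO against IR the 0 higher became 1 with thinning and the 4 lower became 2 with a minimum of 20 CPM. The log2 ratio of Nr4a1 in B cells, IR against control, turned from -0.98 to 0.08 with centring, which moves the median gene there from -1.06 to 0. It was below 0 in every other alternative, down to -1.53. Apart from that centring, the causes were not tested. Over all alternatives 134 counts were within 1.5 times and 30 were not. Of the log2 ratios 473 moved by less than the counting error and 100 by more, as did 40 and 149 of the shares. For the shares the alternatives were other thinning depths and no thinning, which by design change how often a gene is detected. The B cell rule without plasma cells was added after seeing the data. Depth limits Egr2 in NK cells (8 to 17 UMIs) and all 7 genes in irradiated B cells without plasma cells.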
